A study of Homo sapiens with 16 samples.

Results

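The 43 genes described here encode the heat shock proteins of the cytosol and the co-chaperones that work with them. They were chosen by gene symbol, with no measured value in the rule, from the 62700 genes of the count table: 12 of the HSP70 and HSP110 class, 8 HSP40 (DNAJ) genes, 4 BAG genes, 7 of HSP90 and its co-chaperones, 4 small heat shock proteins, 6 chaperones of mitochondria or the endoplasmic reticulum (ER) and the 2 transcription factors HSF1 and HSF2. Earlier results of these data were known when the members were chosen. The name of the group does not hold for all of the genes. HSPA9, HSPD1, HSPE1 and DNAJA3 act in mitochondria and HSPA13 and SERPINH1 in the ER, and these 6 are described apart from the cytosolic genes.

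HSP70 proteins bind unfolded stretches of other proteins in a cycle driven by ATP. HSP40 proteins hand them their clients and speed up ATP hydrolysis, and HSP110 and BAG proteins release the nucleotide so that the client can leave. HSP90 receives part-folded clients, among them steroid receptors and kinases, through co-chaperones, and HSF1 is the factor best known for raising the transcription of all these classes when proteins unfold.

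The cells were OCI-AML3, 1 established line grown from acute myeloid leukemia (AML), so no other genetic background is covered. RNA-seq was made from 16 libraries of bulk RNA. There were 4 libraries of untreated cells and 3 each of cells given 0.1 µM ATRA (all-trans retinoic acid, which activates all retinoic acid receptors), 0.1 µM Am80 (tamibarotene, a synthetic retinoid that acts on the receptor RARA), ATRA together with the inhibitors GSK-LSD1 at 0.1 µM and MB3 at 100 µM (the ATRA combination), and Am80 with the same inhibitors at the same doses (the Am80 combination). GSK-LSD1 inhibits the histone demethylase LSD1 and MB3 inhibits the acetyltransferase GCN5. Treatment lasted 3 h. No library had the inhibitors without a retinoid, or only 1 inhibitor with it, so what follows is the difference that both inhibitors made beside a retinoid. Nothing says that the replicates came from separate cultures, and the p-values then measure only the spread between these libraries, which may be technical. A bulk library also cannot tell a change in every cell from a change in the number of cells that express a gene.

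Depth ran from 11963898 to 33789718 reads per library. The Am80 libraries (19254731 to 33789718) were deeper than those of the Am80 combination (14118272 to 17554734), and the part of this in their comparison was not tested. The myeloid genes SPI1, CD33, CEBPA and LYZ lay at 1254 normalized counts or more in every library, CSF1R (186 to 391), MPO and CD68 (23.9 to 94.0) were lower, and of the genes of other blood lineages CD3D and MS4A1 had no read and CD3E and HBB at most 2.22 normalized counts. Over the genes that varied most between libraries, untreated replicate 4 and Am80 replicate 2 stood farthest from the rest of their groups. Their mean distances were 25.7 and 26.0 on the log2 scale, against 22.5 to 25.1 and 19.7 to 20.2 for the others. Untreated replicate 4 was thus only slightly farther out than untreated replicate 1 (25.1).

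Values are normalized counts, the reads of a library divided by its size factor. Changes are log2 fold changes of normalized count + 1, given with the standard error, from limma over the 14643 genes that averaged 10 or more across the libraries. A gene was called at a Benjamini-Hochberg adjusted p under 0.05 with a change of at least 1.5-fold. Of the 43 members, 37 passed the minimum of 10. The other 6 were HSPA1A, HSPA1B, HSPA1L, HSPA12A, HSPB8 and CRYAB. HSPB8 had no read in any library, and HSPA1B had 2 reads and HSPA1A 12 in all libraries together. HSPA1A and HSPA1B, the stress-inducible HSP70 genes that are usually the most prominent of the class, are near-identical copies, and how reads that match both were counted is not given in the sources used here. Their low values are therefore uncertain, and no change in either could be measured. HSPA1L, HSPA12A and CRYAB had at most 5, 11 and 2 reads in any library.

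In untreated cells a few members supplied most of the chaperone RNA. All 43 together held 1.53% ± 0.0373 (SD, n = 4) of the reads, and HSPA8, HSP90AA1 and HSP90AB1 made up 59.6% ± 0.531 of the members' normalized counts. Per kilobase of exon, the levels were 14155 for HSP90AB1, 13325 for HSPA8 and 8961 for HSP90AA1, followed by 3897 for HSPD1, 3030.2 for DNAJA1 and 2869 for PTGES3. HSPA8, the constitutive HSP70, ranked 9th among all genes by its mean normalized count. At the other end, HSPA2, HSPA12B and DNAJB5 lay at 20.2, 5.68 and 5.55 per kilobase.

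Adding both inhibitors raised most of the expressed chaperone genes, beside ATRA and beside Am80 alike. Of the 37 members tested, 23 were higher and 2 lower in the ATRA combination than with ATRA, where 8.15% of all tested genes were called higher and 11.4% lower. In the Am80 combination against Am80, 23 were higher and 1 lower, with 6.81% and 8.9% of all genes. The median change of the members was 0.83 beside ATRA and 0.87 beside Am80 on the log2 scale, and that of all tested genes -0.02 and -0.01. The share of reads from the 43 genes was 1.32% ± 0.0354 (SD, n = 3) with ATRA and 1.45% ± 0.0667 with Am80, and 2.61% ± 0.279 and 2.99% ± 0.146 in the combinations. Every library of a combination lay above every other library in this share.

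**Figure D1:**
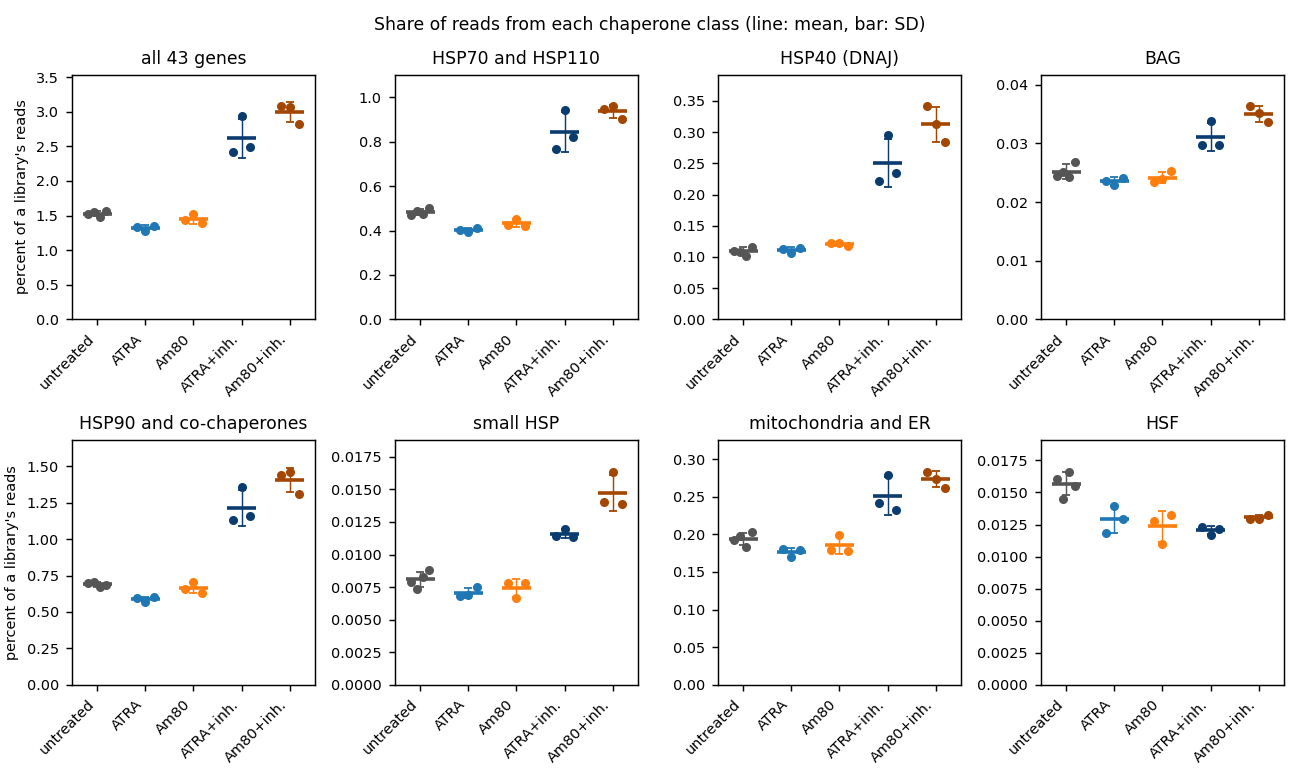
Share of each library's reads (percent, linear axis from 0) that came from all 43 genes and from each class, by treatment, with 1 point per library, a line at the mean and a bar of 1 SD. The 6 combination libraries lay between 2.41% and 3.07% for all 43 genes and the other 10 between 1.28% and 1.56%, whereas the HSF panel shows no such step.

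The counts differed from class to class. All 7 genes of HSP90 and its co-chaperones were higher beside each retinoid, as were 6 of 8 HSP40 genes and 5 of the 8 HSP70 and HSP110 genes tested. Of the 4 BAG genes 1 was higher (BAG3), of the 2 small heat shock proteins tested 1 (HSPB1), and of the 6 organelle chaperones 3 beside each retinoid. Neither HSF1 nor HSF2 was called. The lower members were HSPA12B and DNAJB2 beside ATRA and HSPA12B beside Am80.

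**Figure D2:**
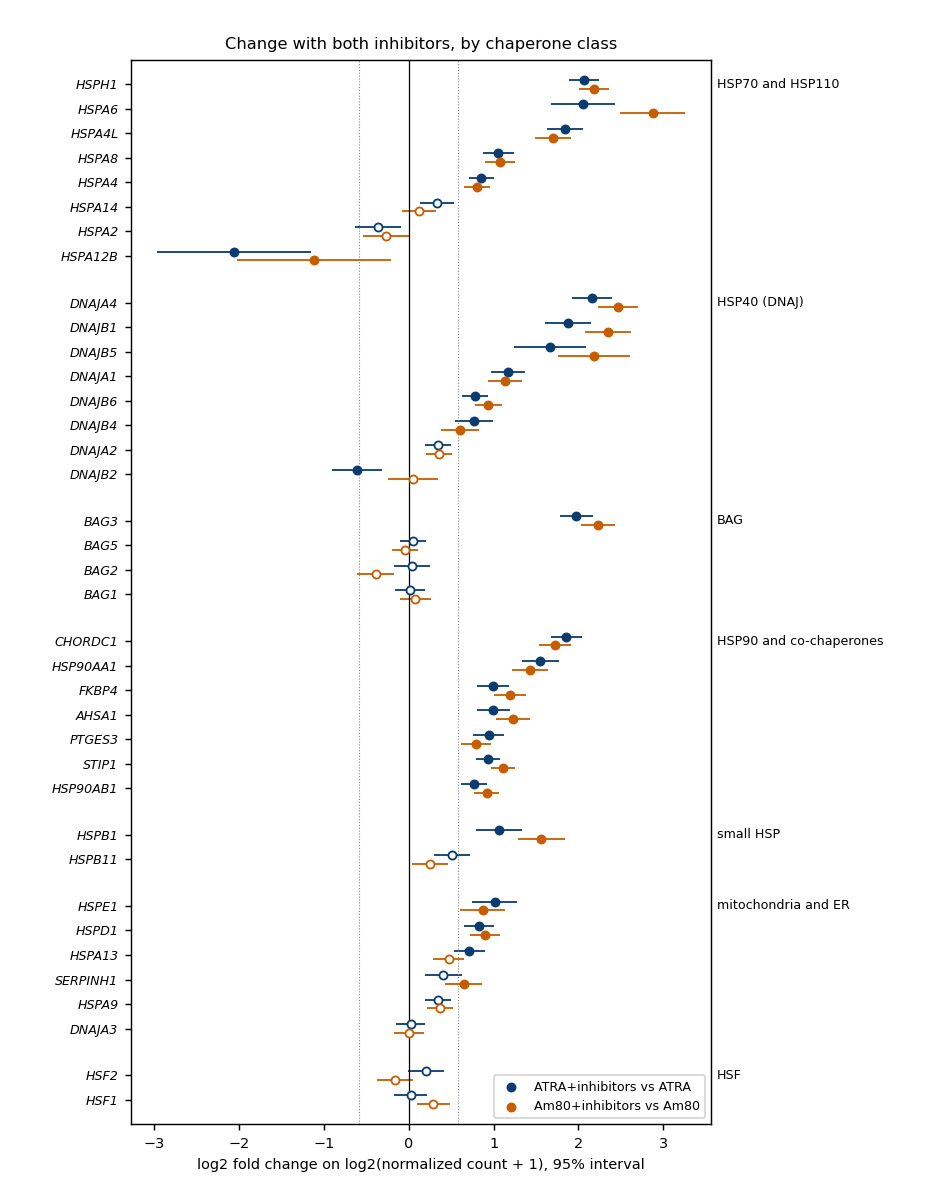
Log2 fold change (x axis, with 95% interval) of the 37 tested members on adding the inhibitors to ATRA (blue) or to Am80 (orange), grouped by class; filled points were called and dotted lines mark 1.5-fold. The HSP90 genes all lie to the right of the limit, whereas within the BAG class BAG3 stands at 1.98 and 2.23 and the other 3 between -0.39 and 0.08.

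The RNA of neither regulator was called. HSF1 lay at normalized counts of 2244, 1944, 2348 and 2290.1 in untreated cells, 1675, 1968 and 1862 with ATRA, 1865, 1465 and 1958 with Am80, 1889, 1813 and 1872 in the ATRA combination and 2174, 2097 and 2141 in the Am80 combination. The ATRA groups overlapped with and without the inhibitors, and the change was 0.02 ± 0.09 with a 95% interval of -0.17 to 0.21. Beside Am80 all 3 combination libraries were above the Am80 libraries, by 0.29 ± 0.09 (adjusted p = 0.0176, limma), under 1.5-fold and within the untreated range. HSF2, a related factor that can pair with HSF1, lay at normalized counts of 431, 457, 443 and 432 in untreated cells, 334, 337 and 367 with ATRA, 423, 462 and 353 with Am80, 387, 395 and 413 in the ATRA combination and 321, 416 and 366 in the Am80 combination. Its intervals on adding the inhibitors were -0.01 to 0.41 and -0.38 to 0.05. HSF1 is controlled mainly as a protein, and RNA levels do not measure that.

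The promoters of the rising members were read for the heat shock element, the inverted repeat of GAA that HSF1 trimers bind. RefSeq windows of GRCh38.p14, from 250 bases before to 50 bases after a start site, were searched on both strands for GAA, TTC and GAA in this order with 2 bases of any kind between them. Of 35116 windows over all genes, 172 (0.49%) held it. Of the 38 members with a window 9 held it in at least 1 window: HSPA6, HSPA8, HSPD1, HSP90AA1, HSP90AB1, DNAJA1, DNAJB6, CHORDC1 and SERPINH1. The first 8 of these were among the 21 members with a window that were higher beside both retinoids, and SERPINH1 was the only one among 12 other tested members. These 12 were not all without a rise, as SERPINH1 was called higher beside Am80 only and HSPA13 beside ATRA only. With up to 1 mismatch, 16 of the 21 and 2 of the 12 held a match, and so did 6.24% of all windows. Counted by window, 9 of the members' 56 windows held the element and 22 held a match with up to 1 mismatch. The members were chosen as heat shock genes, and whether the element had a part in the rise was not tested. A member can have several windows, and matches are letters in a window, not sites shown to be bound. The 250 bases before the start site are given 5′ to 3′ for 5 rising members, HSP70 and HSP90 genes and the HSP90 co-chaperone with the greatest rise, to show how differently the element is placed, with its letters in capitals. In HSPA6 (chr1:161524290-161524539, plus strand) the match spans -74 to -62 from the start site. HSPA8 (chr11:123062137-123062386, minus strand) has separate matches at -230 to -218 and -55 to -43, HSP90AA1 (chr14:102087045-102087294, minus strand) has 1 at -88 to -76, and HSP90AB1 (chr6:44247693-44247942, plus strand) has 2 at -165 to -153 and -112 to -100. In CHORDC1 (chr11:90223050-90223299, minus strand) 3 matches overlap in 1 run of repeats from -60 to -38.
HSPA6: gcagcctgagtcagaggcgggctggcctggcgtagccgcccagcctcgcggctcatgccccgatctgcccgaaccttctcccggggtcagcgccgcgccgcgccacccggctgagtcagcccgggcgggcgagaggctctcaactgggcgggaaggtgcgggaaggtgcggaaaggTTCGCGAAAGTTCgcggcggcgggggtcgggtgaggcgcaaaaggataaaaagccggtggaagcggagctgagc
HSPA8: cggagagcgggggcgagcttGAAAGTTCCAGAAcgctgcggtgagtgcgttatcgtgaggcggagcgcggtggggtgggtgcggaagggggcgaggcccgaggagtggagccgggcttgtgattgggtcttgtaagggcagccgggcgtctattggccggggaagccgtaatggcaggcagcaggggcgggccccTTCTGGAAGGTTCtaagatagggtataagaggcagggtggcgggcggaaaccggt
HSP90AA1: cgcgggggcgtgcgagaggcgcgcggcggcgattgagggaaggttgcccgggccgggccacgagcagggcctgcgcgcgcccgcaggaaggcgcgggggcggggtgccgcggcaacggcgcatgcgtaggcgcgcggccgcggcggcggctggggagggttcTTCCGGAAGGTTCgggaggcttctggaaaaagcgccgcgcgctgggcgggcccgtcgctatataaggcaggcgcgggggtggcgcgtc
HSP90AB1: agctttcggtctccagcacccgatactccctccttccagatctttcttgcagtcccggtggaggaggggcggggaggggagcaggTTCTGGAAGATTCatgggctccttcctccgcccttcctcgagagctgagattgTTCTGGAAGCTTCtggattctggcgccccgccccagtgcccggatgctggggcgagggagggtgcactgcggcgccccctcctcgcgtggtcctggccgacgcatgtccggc
CHORDC1: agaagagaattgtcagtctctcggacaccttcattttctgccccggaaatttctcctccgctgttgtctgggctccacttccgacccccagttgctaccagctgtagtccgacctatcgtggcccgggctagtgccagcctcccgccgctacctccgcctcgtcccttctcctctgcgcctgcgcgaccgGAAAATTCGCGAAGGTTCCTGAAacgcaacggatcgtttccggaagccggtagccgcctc

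Among the HSP70 genes HSPA6, a strongly stress-inducible HSP70 (ENSG00000173110.8, chromosome 1, 161524540 to 161526910 in GRCh38), had the greatest rise beside Am80. It lay at normalized counts of 139, 108, 112 and 143 in untreated cells, 70.4, 82.8 and 79.2 with ATRA, 94.7, 68.9 and 96.2 with Am80, 273, 448 and 278 in the ATRA combination and 772, 636 and 520.1 in the Am80 combination. Every combination library exceeded every other library, and the Am80 combination lay wholly above the ATRA combination. The change was 2.05 ± 0.18 beside ATRA (adjusted p = 3.20e-08, limma) and 2.88 ± 0.18 beside Am80 (adjusted p = 2.91e-10), which is 4.15-fold and 7.34-fold. HSPA7, a pseudogene closely like HSPA6, had means of 125 ± 17.6 untreated (SD, n = 4), 131 ± 12.9 with ATRA, 115 ± 5.49 with Am80, 131 ± 5.40 in the ATRA combination and 143 ± 20.2 in the Am80 combination (n = 3 each), and was not called on adding the inhibitors (0.01 and 0.31).

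HSPH1, the HSP110 protein that exchanges the nucleotide of HSP70, was far more abundant. Its normalized counts were 8989, 8953, 8857 and 9190.2 in untreated cells, 8649.8, 7333 and 8370.2 with ATRA, 8847, 9184 and 8531 with Am80, 31101, 40106 and 31447 in the ATRA combination and 41217, 41272 and 37999.8 in the Am80 combination. The groups without inhibitors lay close together and the 6 combination libraries stood apart from them, with changes of 2.07 ± 0.09 and 2.18 ± 0.09 beside ATRA and Am80 (adjusted p = 4.90e-13 and 1.78e-13, limma). By mean normalized count it went from rank 277 with ATRA to rank 27 of all genes in the ATRA combination, and from 261 to 25 beside Am80. The other HSP110 genes rose as well. HSPA4L lay at normalized counts of 763, 801, 872 and 627 in untreated cells, 556, 518 and 576 with ATRA, 606, 679 and 566 with Am80, 1877, 2216 and 1838 in the ATRA combination and 1966, 2081 and 1952 in the Am80 combination. All combination libraries were above all others, whereas the ATRA libraries were below the untreated ones, and the changes on adding the inhibitors were 1.84 ± 0.10 and 1.70 ± 0.10. HSPA4, at 5222 to 6772 normalized counts without inhibitors and 9727 to 11144 with them, rose by 0.85 and 0.80.

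HSPA8 already ranked among the 13 most abundant genes in every group and still rose. It lay at normalized counts of 61094, 63844, 63100 and 70421 in untreated cells, 51992, 50959.9 and 55091 with ATRA, 59190.5, 61109.5 and 56890 with Am80, 96829, 122868 and 109726 in the ATRA combination and 125546, 129380 and 118699 in the Am80 combination. No combination library overlapped any other, and the changes were 1.05 ± 0.09 and 1.08 ± 0.09 (adjusted p = 1.16e-08 and 7.98e-09, limma), or 2.08-fold and 2.11-fold. Under quantile normalization the change beside ATRA was 0.52, under the limit of 1.5-fold. Against untreated cells the HSPA8 changes of 0.76 in the ATRA combination and 0.95 in the Am80 combination then became 0.30 and 0.50, also not called. Beside Am80 HSPA8 was called in all 27 refits.

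The remaining HSP70 genes did not follow. HSPA14, a ribosome-associated HSP70, changed by 0.34 beside ATRA (adjusted p = 0.00647, limma) and 0.12 beside Am80 (0.319). HSPA2, best known from the testis, had 77.8 to 110 normalized counts in the combinations and 94.4 to 114 with a retinoid alone, with changes of -0.37 and -0.27, neither past 1.5-fold. HSPA12B, a divergent HSP70 known from endothelial cells, had few reads in the combinations. Its normalized counts were 15.3, 14.8, 24.9 and 16.6 in untreated cells, 14.5, 14.7 and 15.1 with ATRA, 11.1, 4.66 and 12.3 with Am80, 4.88, 1.09 and 3.41 in the ATRA combination and 2.19, 2.75 and 6.44 in the Am80 combination. The ATRA combination lay below all ATRA libraries, with a change of -2.06 ± 0.43 (adjusted p = 6.20e-04, limma), whereas the Am80 groups overlapped, with -1.12 ± 0.43 (adjusted p = 0.0465). That last call was lost by edgeR and DESeq2 (adjusted p = 0.0612 and 0.126). It was also lost when untreated replicate 1 or 2, any ATRA library, Am80 replicate 1 or 3, ATRA combination replicate 3, or Am80 combination replicate 1 or 2 was left out, with changes of -1.12 to -0.88 and adjusted p of 0.0512 to 0.172.

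Among the HSP40 genes, DNAJA4, DNAJB1 and DNAJB5 rose most. DNAJB1, a major partner that stimulates HSP70 in the cytosol, lay at normalized counts of 3438, 3336, 3252 and 3956 in untreated cells, 4179, 4123 and 4392 with ATRA, 4934, 4078 and 4671 with Am80, 12503, 20236 and 14924 in the ATRA combination and 26831, 23057 and 20202 in the Am80 combination. The lowest library of the ATRA combination was above every library without inhibitors, and its changes were 1.88 ± 0.13 and 2.35 ± 0.13 beside ATRA and Am80 (adjusted p = 8.96e-10 and 3.03e-11, limma). DNAJB1 was rank 892 in untreated cells and 59 in the Am80 combination.

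DNAJA4 (ENSG00000140403.13), an HSP40 of the same type as the yeast Ydj1 protein, lay at normalized counts of 1085, 1163, 1112 and 1150 in untreated cells, 1047, 1132 and 1106 with ATRA, 1047, 1204 and 1062 with Am80, 3893, 6269 and 4776 in the ATRA combination and 6535, 6185 and 5566 in the Am80 combination. Its groups without inhibitors were nearly level, and it had the greatest change of the 37 members beside ATRA (2.16 ± 0.11, adjusted p = 1.55e-11, limma) and the second after HSPA6 beside Am80 (2.46 ± 0.11, adjusted p = 1.91e-12). DNAJB5 did the same at a far lower level. It lay at normalized counts of 34.9, 36.0, 21.2 and 38.8 in untreated cells, 32.8, 39.7 and 36.7 with ATRA, 38.1, 31.6 and 32.5 with Am80, 107, 148 and 101 in the ATRA combination and 160.1, 180.1 and 138 in the Am80 combination, and its changes were 1.66 ± 0.20 and 2.19 ± 0.20.

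DNAJA1, the most abundant HSP40 gene here per kilobase, lay at normalized counts of 8240.3, 8004, 7342 and 9503 in untreated cells, 7899, 6993 and 8362 with ATRA, 9539, 10159 and 8776 with Am80, 16522, 19440.1 and 16418 in the ATRA combination and 22059.5, 21309.8 and 18946 in the Am80 combination. The combination libraries were again all above the rest, with changes of 1.17 ± 0.10 and 1.13 ± 0.10 (adjusted p = 9.93e-09 and 1.45e-08, limma). DNAJB6, which keeps aggregation-prone proteins soluble, rose by 0.78 and 0.94, and DNAJB4 by 0.77 and 0.60. The DNAJB4 call beside Am80 was just past the limit and fell under it without Am80 replicate 3 (0.52) or without Am80 combination replicate 1 (0.58) or 2 (0.56). This call was also lost by edgeR (0.57) and with scaling to total reads (0.48). DNAJA2 changed by 0.34 and 0.35, under 1.5-fold. DNAJB2, a J protein with ubiquitin-binding motifs, was 266, 257 and 266 with ATRA and 181, 199 and 141 in the ATRA combination, a fall to below every ATRA library (-0.61 ± 0.14, adjusted p = 0.00128, limma). Without ATRA combination replicate 3 this change was -0.47 and no longer called. Under quantile normalization it was -0.49 and also not called. Beside Am80 the groups overlapped, at 236, 197 and 267 and 244, 274 and 205 (change 0.05).

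BAG3 stood apart from the other BAG genes. BAG3, which couples HSP70 to autophagy and is a known stress-induced gene, lay at normalized counts of 508, 556, 583 and 549.5 in untreated cells, 537, 626 and 636 with ATRA, 675, 608 and 709 with Am80, 2108, 2717 and 2282 in the ATRA combination and 3270.1, 3238 and 2869.7 in the Am80 combination. Combination libraries were all above the rest, with changes of 1.98 ± 0.09 and 2.23 ± 0.09 (adjusted p = 3.86e-12 and 5.64e-13, limma), or 3.93-fold and 4.7-fold. BAG1, which links HSP70 to the proteasome and was the most abundant BAG gene per kilobase in untreated cells, lay at normalized counts of 2304, 2268, 2165 and 2859.6 in untreated cells, 2098, 1956 and 2204 with ATRA, 2208, 2150.3 and 2372 with Am80, 2090.2, 2237 and 1993 in the ATRA combination and 2494, 2360 and 2253 in the Am80 combination. The libraries with and without inhibitors overlapped beside each retinoid, and the intervals of its changes were -0.17 to 0.20 and -0.10 to 0.26 on the log2 scale. BAG5 lay at 980.4, 1037, 1028 and 957 in untreated cells, 1104, 943 and 990.4 with ATRA, 926, 1041 and 999.5 with Am80, 1008, 1118 and 1023 in the ATRA combination and 942, 966 and 967 in the Am80 combination, with the groups nearly level and intervals of -0.10 to 0.21 and -0.20 to 0.11. BAG2, an inhibitor of the ubiquitin ligase CHIP, lay at normalized counts of 294, 308, 293 and 349 in untreated cells, 276, 261 and 333 with ATRA, 373, 381 and 325 with Am80, 280.2, 305 and 303 in the ATRA combination and 279.5, 256 and 285 in the Am80 combination. It changed by 0.04 beside ATRA and by -0.39 beside Am80, where all 3 combination libraries lay below all Am80 libraries but the change stayed under 1.5-fold (adjusted p = 0.00488, limma). Of the 6651 exon bases of BAG2, 2939 overlap genes on the other strand, mostly RAB23. Reads there can be told apart only if the counting used strand, which is not given in the sources used here.

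**Figure D3:**
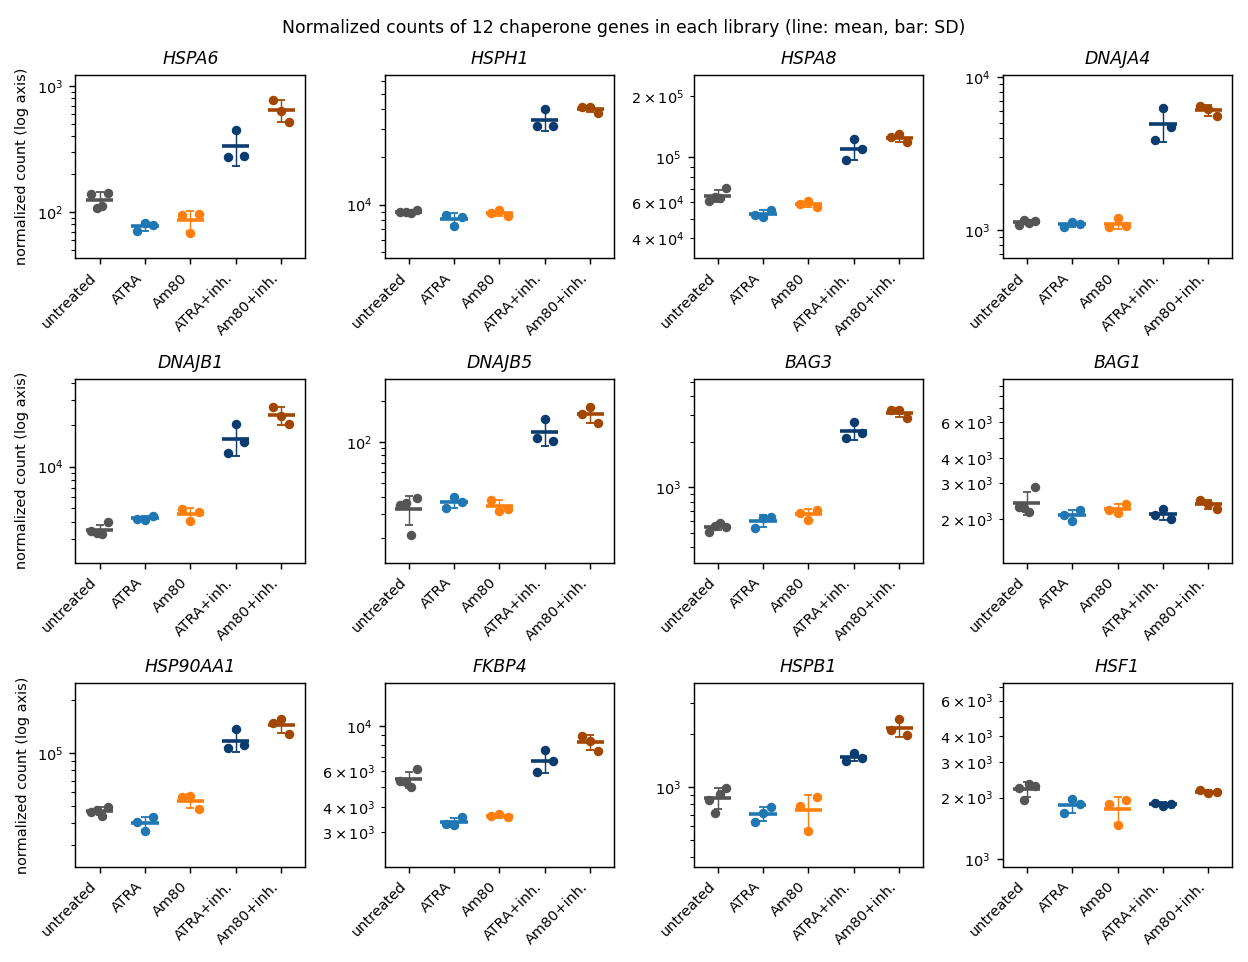
Normalized counts (log axis, 1 point per library, line at the mean, bar of 1 SD) of 12 members in the 5 groups. HSPA6, HSPH1, HSPA8, DNAJA4, DNAJB1, DNAJB5, BAG3, HSP90AA1 and HSPB1 have all 6 combination libraries above the other 10, whereas BAG1 and HSF1 overlap between groups and FKBP4 has a dip with each retinoid alone.

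Both cytosolic HSP90 genes rose, the inducible HSP90AA1 and the constitutive HSP90AB1. HSP90AA1 lay at normalized counts of 46630.2, 47831, 44167 and 49486 in untreated cells, 40911, 36286 and 43219 with ATRA, 56238, 56849.7 and 48341 with Am80, 106435, 136625 and 110969 in the ATRA combination and 148956, 156748 and 128886 in the Am80 combination. All combination libraries exceeded all others, by 1.55 ± 0.10 and 1.43 ± 0.10 beside ATRA and Am80 (adjusted p = 5.87e-10 and 1.70e-09, limma). HSP90AB1 went from 36542 to 37629 with ATRA to 58519 to 68181 and from 36683 to 40246 with Am80 to 69727 to 73660.3, changes of 0.77 ± 0.07 and 0.92 ± 0.07. Under quantile normalization the HSP90AB1 change beside ATRA was 0.38 and not past 1.5-fold. In the Am80 combination against untreated cells it was then 0.39, from 0.78, and also not called. Beside Am80 HSP90AB1 was called in all 27 refits. Whether HSP90AA1 and HSP90AB1 changed unequally was not tested, but per kilobase the order of their mean levels turned. With ATRA, HSP90AB1 was at 12412 and HSP90AA1 at 7648, and in the ATRA combination they were at 21189.6 and 22487; in the Am80 combination HSP90AA1 was at 27604 and HSP90AB1 at 24261. By mean normalized count HSP90AA1 was above HSP90AB1 in every group, so this turn depends on the exon lengths used (5248 and 2980 bases). HSP90AA1 was rank 18 of all genes with ATRA and rank 4 in either combination.

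All co-chaperones of HSP90 in the group moved with it. CHORDC1, a co-chaperone with zinc-binding CHORD domains, rose most. Its normalized counts were 2058, 2105, 2019 and 1972 in untreated cells, 1636, 1534 and 1640 with ATRA, 1692, 2090.3 and 1567 with Am80, 5543, 6569.9 and 5406 in the ATRA combination and 5662, 6182 and 5733 in the Am80 combination. The combination libraries lay apart from the rest and the changes were 1.86 ± 0.09 and 1.73 ± 0.09 (adjusted p = 3.86e-12 and 1.13e-11, limma). AHSA1, the activator of the HSP90 ATPase, lay at normalized counts of 3127, 3221, 2892 and 3939.8 in untreated cells, 2651, 2547 and 2596 with ATRA, 2711, 2667 and 2805 with Am80, 4831, 5863 and 4905 in the ATRA combination and 6859, 6537 and 5841 in the Am80 combination. No combination library overlapped any other, and AHSA1 rose by 1.0 ± 0.09 and 1.23 ± 0.09. STIP1, which hands clients from HSP70 to HSP90, rose by 0.93 and 1.11, and PTGES3, the p23 protein that closes the HSP90 cycle, by 0.94 and 0.79.

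FKBP4 is an immunophilin of steroid receptor complexes, and it was the member with the largest mean change with the retinoids themselves. It lay at normalized counts of 5376, 5306, 4972 and 6153 in untreated cells, 3279.8, 3244 and 3554 with ATRA, 3583, 3702 and 3557 with Am80, 5912, 7599 and 6671 in the ATRA combination and 8947, 8432 and 7506 in the Am80 combination. Both retinoid groups lay wholly below the untreated cells, whereas the Am80 combination lay above them and the ATRA combination overlapped them. Against untreated cells it fell, with changes of -0.70 ± 0.08 with ATRA (adjusted p = 1.47e-06, limma) and -0.59 ± 0.08 with Am80 (adjusted p = 1.28e-05), and adding the inhibitors raised it by 1.0 ± 0.09 and 1.19 ± 0.09. The net change was 0.30 in the ATRA combination, under 1.5-fold, and 0.61 in the Am80 combination. The Am80 call stood near the limit. Without untreated replicate 4, Am80 replicate 1 or Am80 replicate 3 its change was -0.53, -0.58 and -0.58 and no longer called, at adjusted p of 8.28e-06 to 0.000146. Without untreated replicate 3 or Am80 combination replicate 1, the net change of the Am80 combination was 0.56 and 0.55. With quantile normalization or scaling to total reads it was 0.38 and 0.42.

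HSPB1 (HSP27), a small heat shock protein that holds unfolded proteins without ATP, lay at normalized counts of 848, 714, 919 and 987 in untreated cells, 638, 713 and 769 with ATRA, 782, 567 and 877 with Am80, 1409, 1559.6 and 1457 in the ATRA combination and 2095, 2431 and 1963 in the Am80 combination. The combinations lay above all other libraries, and the Am80 combination above the ATRA combination. Its changes were 1.06 ± 0.13 and 1.56 ± 0.13 (adjusted p = 2.08e-06 and 1.38e-08, limma). HSPB11, now named IFT25 for its part in the transport along cilia, lay at normalized counts of 473, 508, 471 and 555 in untreated cells, 515, 429.6 and 520 with ATRA, 615, 593 and 483 with Am80, 694, 703 and 683 in the ATRA combination and 612, 741 and 657 in the Am80 combination. It changed by 0.51 ± 0.10 beside ATRA and 0.25 ± 0.10 beside Am80, under 1.5-fold.

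Of the organelle chaperones, the mitochondrial chaperonin pair rose with the cytosolic genes. HSPD1 (HSP60), which forms the folding chamber, lay at normalized counts of 16135, 16912, 15441 and 17691 in untreated cells, 15167, 13525 and 14981 with ATRA, 14946, 16661 and 15016 with Am80, 24652, 29777 and 23599.9 in the ATRA combination and 30124, 29019 and 27573 in the Am80 combination. The combinations did not overlap the other groups, and the changes were 0.83 ± 0.08 and 0.90 ± 0.08 (adjusted p = 1.79e-07 and 6.38e-08, limma). HSPE1 (HSP10), its lid, lay at normalized counts of 1909, 1746, 1756 and 2519 in untreated cells, 1623, 1433 and 1576 with ATRA, 2038, 2519 and 1812 with Am80, 2969.9, 3510.4 and 2889 in the ATRA combination and 4005, 4096 and 3469.6 in the Am80 combination. It rose by 1.01 ± 0.13 beside ATRA and 0.87 ± 0.13 beside Am80, with every combination library above every other. Both genes lie head to head on chromosome 2 and their exons overlap by 281 bases on opposite strands. Reads there can be told apart only if the counting used strand, which is not given in the sources used here. HSPE1 also shares 192 exon bases with HSPE1-MOB4 on its own strand, where strand cannot tell reads apart. The other mitochondrial chaperones moved less: HSPA9, the mitochondrial HSP70, changed by 0.34 and 0.37, and DNAJA3, its J protein, by 0.02 and 0.00.

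In the ER group, HSPA13, a small HSP70 of microsomes, lay at normalized counts of 1311, 1236, 1288 and 1239.8 in untreated cells, 1354, 1203 and 1487 with ATRA, 1810.3, 1839.7 and 1539.8 with Am80, 2146, 2369 and 2105 in the ATRA combination and 2420.5, 2561 and 2192 in the Am80 combination. Its Am80 libraries already stood above the untreated ones. With the inhibitors added it changed by 0.71 ± 0.09 beside ATRA, which was called, and 0.47 ± 0.09 beside Am80, under 1.5-fold. Scaled to total reads, the ATRA change was 0.57 and under the limit. SERPINH1, the collagen chaperone HSP47, lay at normalized counts of 1249.5, 1155, 1265 and 1603 in untreated cells, 1034, 1219 and 1168 with ATRA, 1268, 1049.5 and 1329 with Am80, 1461, 1615 and 1458 in the ATRA combination and 1880, 1942 and 1863 in the Am80 combination. It changed by 0.41 ± 0.10 beside ATRA, under 1.5-fold, and by 0.65 ± 0.10 beside Am80, which was called. Without Am80 replicate 2 the latter was 0.54 and no longer called. With quantile normalization or scaling to total reads it was 0.54 and 0.52, also under the limit. A difference between the retinoids in what the inhibitors did to these genes did not pass the test of the interaction, at -0.25 (adjusted p = 0.345, limma) and 0.24 (0.438).

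With a retinoid alone few members were called, and those were lower. With ATRA, 0 of 37 members were higher and 2 lower than in untreated cells, where 6.52% and 2.94% of all genes were called. Those 2 were FKBP4, above, and HSPA6, with -0.68 ± 0.17 (adjusted p = 0.00504, limma), all 3 ATRA libraries lying below all untreated ones. With Am80, 0 were higher and 1 lower (FKBP4), against 6.41% and 3.76% of all genes. HSPA6 changed by -0.54 ± 0.17 with Am80 (adjusted p = 0.0222), also with all Am80 libraries below the untreated ones but under 1.5-fold. Left out in turn, untreated replicate 2 or 3 or Am80 replicate 1 or 3 brought that change to -0.59 or beyond, down to -0.62, and past the limit. The median member changed by -0.18 with ATRA and -0.03 with Am80, against -0.02 and -0.01 over all tested genes. At an unadjusted p under 0.05 there were 19 members with ATRA and 18 with Am80, against 35.6% and 39% of all genes. By edgeR and DESeq2, too, 0 were called higher. Both comparisons share the untreated libraries.

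Smaller shifts ran in both directions. HSPA4L was -0.47 with ATRA (adjusted p = 8.90e-04, limma) and CHORDC1 -0.35 (0.00367), both with no overlap, and AHSA1, STIP1 and HSF2 were -0.33, -0.24 and -0.35. HSPA13 was 0.44 with Am80 (adjusted p = 2.22e-04), DNAJB1 0.38 (0.0208), DNAJA2 0.32 (0.00131) and BAG3 0.27 (0.0244), each with all Am80 libraries above the untreated ones. None of these reached 1.5-fold. HSPA12B, at 11.1, 4.66 and 12.3 normalized counts with Am80, changed by -0.93 ± 0.41 and did not pass the test (adjusted p = 0.0937, limma), although edgeR called it lower (adjusted p = 0.0304). HSF1 was -0.27 with ATRA and -0.33 with Am80 (adjusted p = 0.0297 and 0.00628), under 1.5-fold.

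**Figure D4:**
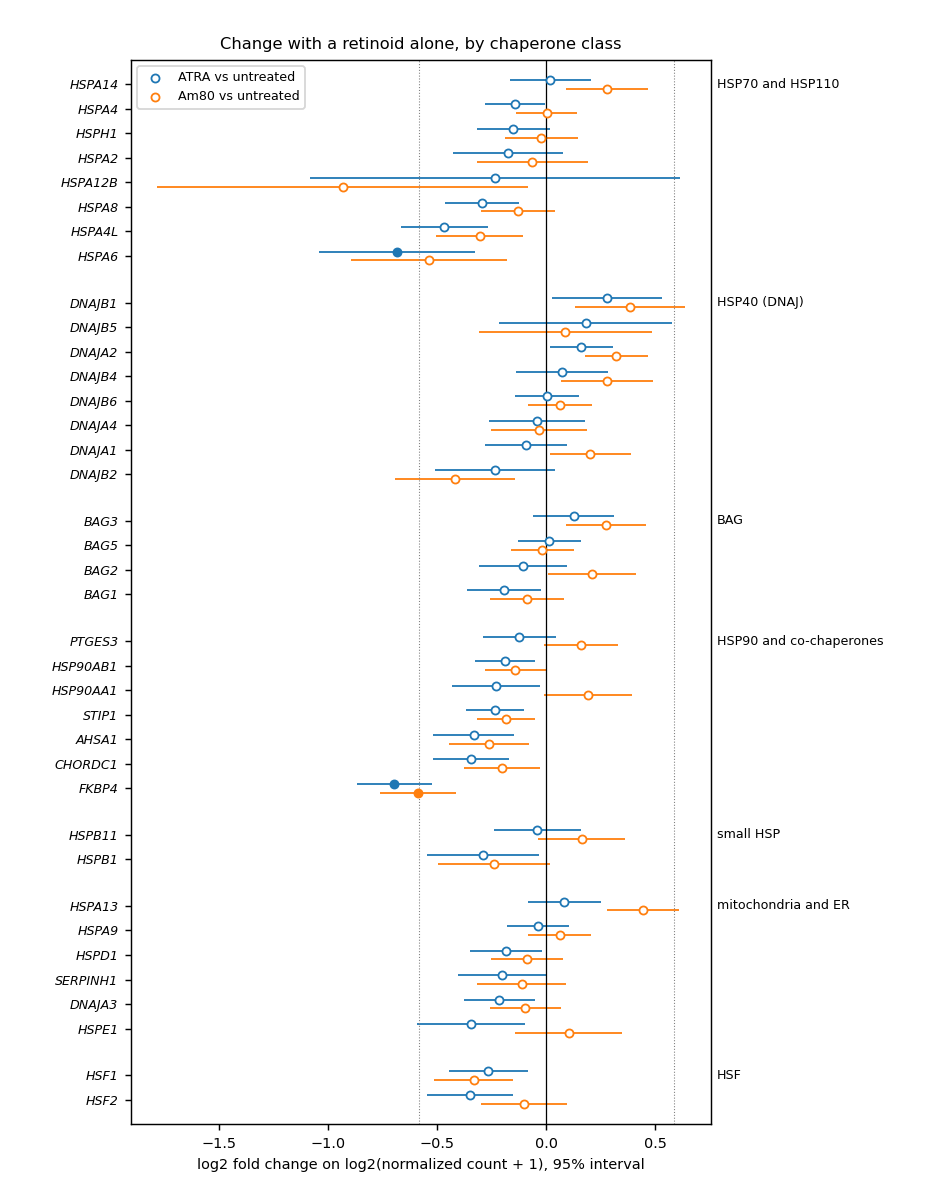
Log2 fold change (x axis, with 95% interval) of the 37 tested members with ATRA (blue) or Am80 (orange) against untreated cells, by class; filled points were called and dotted lines mark 1.5-fold. Apart from HSPA12B at -0.93, the points lie between -0.70 and 0.44, with filled points for FKBP4 with both retinoids and for HSPA6 with ATRA.

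Set directly against untreated cells, 21 members were higher and 2 lower in the ATRA combination, with 14.2% and 14.8% of all genes called, and 24 were higher and 1 lower in the Am80 combination, with 12.9% and 13.1%. These comparisons share their libraries with those above and add no separate evidence. BAG3 was 4.29-fold and 5.68-fold, DNAJB1 4.47-fold and 6.66-fold and HSPA6 2.59-fold and 5.06-fold the untreated level. Members that stood above ATRA by 1.5-fold but not above untreated cells were FKBP4 and HSP90AB1 (0.58, just under the limit of 0.585). HSP90AB1 was called without untreated replicate 1 (0.59) or ATRA combination replicate 1 (0.63). Without ATRA combination replicate 2, HSPD1, HSPE1 and AHSA1 were at 0.55, 0.58 and 0.57 and not called. The count of higher members in the ATRA combination was then 18, with 1918 of all genes called higher. In the Am80 combination DNAJA2 and HSPA13 were called (0.67 and 0.91) although they were not against Am80. The DNAJA2 call was lost under quantile normalization (0.48) and with scaling to total reads (0.49). SERPINH1 was 0.53 in the Am80 combination, not called, and 0.63 and called without untreated replicate 4. Under quantile normalization 15 members were higher in the ATRA combination and 18 in the Am80 combination, and with scaling to total reads 16 and 22. Of all 14643 genes 1941 and 1741 were called higher by the first scaling, and 1451 and 1232 by the second. HSPA4, STIP1, HSPD1, HSPE1 and AHSA1 were under 1.5-fold in the ATRA combination by either scaling.

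Am80 and ATRA, which differ in structure (Am80 is a synthetic aromatic amide and ATRA a vitamin A derivative) and were given at the same dose and time, were compared directly for the 37 members, with p-values adjusted over all tested genes. Alone, no member was called (0.0478% of all genes), with 9 members at an unadjusted p under 0.05 by limma against 13.9% of all genes. DESeq2 and edgeR also called 0. Of the 37 differences 32 were positive, that is, higher with Am80. Their median was 0.12 on the log2 scale, against 0.005 over all tested genes. All 3 Am80 libraries lay above all 3 ATRA libraries for 10 members and below them for 1, against 10.8% and 9.45% of all genes. The lowest adjusted p belonged to HSPA13 (0.36 ± 0.09, adjusted p = 0.0727), followed by HSP90AA1 (0.42 ± 0.10, 0.0762). For HSP90AA1 all ATRA libraries lay below the untreated ones, whereas the Am80 libraries overlapped them. The interval of the HSP90AA1 difference was 0.21 to 0.64, which includes 1.5-fold. For HSPH1 it was -0.05 to 0.31 and for BAG3 -0.05 to 0.35.

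With the inhibitors, again no member was called by limma or edgeR, and 1 by DESeq2 (HSPA6). Of all genes 0% were called by limma, but without untreated replicate 4 it called 47 higher and 39 lower, and without Am80 replicate 2 21 and 17. At an unadjusted p under 0.05 there were 20 of 37 members, with 18.1% of all genes, and 33 of the 37 differences were positive, that is, higher in the Am80 combination. The median difference was 0.20 on the log2 scale, and that of all tested genes was -0.0035. Without the inhibitors 32 were positive, with a median of 0.12, so most members tilted this way there too. For 10 members all 3 libraries of the Am80 combination lay above all 3 of the ATRA combination and for 1 (BAG5) below, against 16.4% and 13.8% of all genes.

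HSPA6 differed most, by 0.97 ± 0.18 (95% interval 0.59 to 1.35, adjusted p = 0.117, limma), next DNAJB1 by 0.58 ± 0.13 (0.31 to 0.84), HSPB1 by 0.55 ± 0.13 (0.27 to 0.82), DNAJB2 by 0.48 ± 0.14 (0.18 to 0.77), DNAJB5 by 0.43 ± 0.20 (0.01 to 0.86) and BAG3 by 0.41 ± 0.09 (0.21 to 0.60). CHORDC1 and HSPA4L did not show this, with intervals of -0.18 to 0.20 and -0.19 to 0.23 that exclude 1.5-fold. ATRA combination replicate 2 was the highest of its group for most rising members. Without it, HSPA6 (1.20) and DNAJB1 (0.76) were both called, each at adjusted p = 0.00821. Without untreated replicate 4 or Am80 replicate 2, which are not in this comparison but enter the shared estimate of the spread, HSPA6 alone was called, at adjusted p = 0.0195 and 0.0342. The interaction, which asks whether the inhibitors changed a gene differently beside Am80 and beside ATRA, called 0 members by limma, edgeR or DESeq2. At an unadjusted p under 0.05 there were 6, against 15.1% of all genes. Of the 37 interaction values 22 were positive and 15 negative, with a median of 0.06 against -0.005 over all tested genes. HSPA6 had 0.82 ± 0.26 (adjusted p = 0.226, limma) and DNAJB2 0.66 ± 0.20 (0.226).

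**Figure D5:**
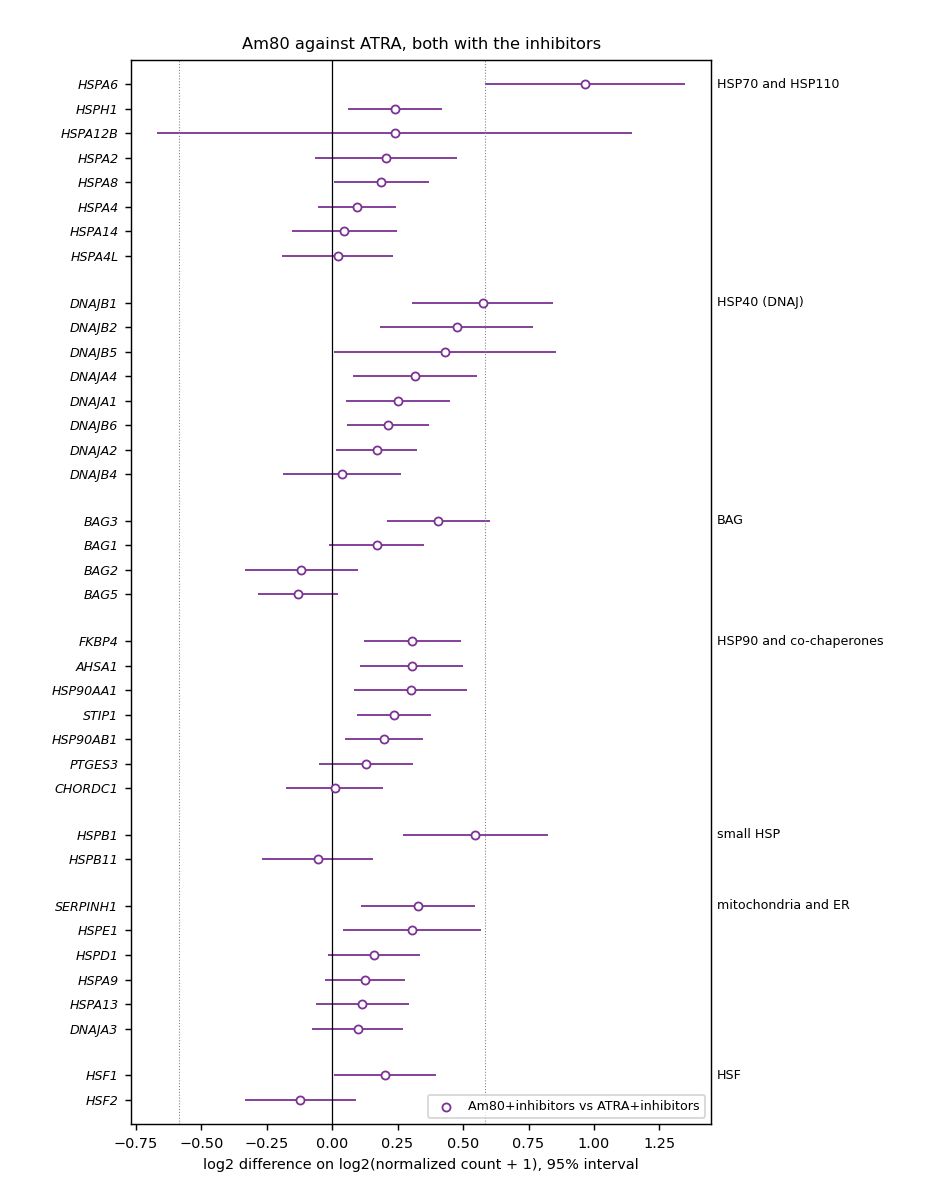
Log2 difference (x axis, with 95% interval) between the Am80 combination and the ATRA combination for the 37 tested members, by class; open points were not called and dotted lines mark 1.5-fold. Of 37 points 33 lie to the right of 0, HSPA6 farthest at 0.97.

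Of 102 further genes of the same machinery outside the group, 87 passed the minimum of 10. On adding the inhibitors to ATRA 14 of the 87 rose and 3 fell, and on adding them to Am80 15 rose and 1 fell, where 8.15% and 11.4% and then 6.81% and 8.9% of all genes were called higher and lower. The medians were 0.19 and 0.21 on the log2 scale, against 0.83 and 0.87 for the members. The HSP90 co-chaperones SUGT1 (0.96 and 1.10 beside ATRA and Am80), PPID (1.0 and 1.04) and ST13, also called HIP (0.81 and 0.80), were called beside both, but the other 14 tested members of that list were not called higher. STUB1, the ubiquitin ligase CHIP, was -0.59 beside ATRA and called lower. Of the 8 subunits of the chaperonin TRiC, which folds actin and tubulin, 1 was called higher beside ATRA (CCT6A, 0.66) and 2 beside Am80 (CCT6A, 0.68, and TCP1, 0.60), and the medians were 0.28 and 0.31. Of the 6 prefoldin subunits 2 were called higher beside ATRA and 1 beside Am80, and PFDN5, called in both, rose by 1.05 and 1.40.

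Of the 30 other DNAJ genes tested, 5 rose and 1 fell beside ATRA, and 4 rose and 1 fell beside Am80, among the risers DNAJB9 and DNAJC3, J proteins of the ER (1.04 and 0.88; 0.90 and 0.84). None of the 7 other nucleotide exchange factors of HSP70 and none of the 5 genes of the mitochondrial protease list was called beside either retinoid by limma, with 3 and 2 at an unadjusted p under 0.05 beside ATRA and 4 and 2 beside Am80, where 55.1% and 47.5% of all genes were. Of the 5 genes of the disaggregase and ubiquitin list 2 rose beside ATRA and 3 beside Am80. SQSTM1, the autophagy receptor p62, rose by 0.98 and 1.37. Of 9 HSF genes and their regulators 1 rose and 1 fell beside ATRA and 2 rose beside Am80. IER5, a known cofactor of HSF1, was called beside Am80 (0.85) but not beside ATRA (0.35, adjusted p = 0.0393, limma). The 6 other small heat shock proteins did not pass the minimum.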

How the data were processed

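RNA of 16 OCI-AML3 libraries was sequenced (51 cycles, single end). Per the labels and the study's methods, reads went through FastQC, cutadapt, STAR, featureCounts and DESeq2. The genome build, annotation and strand setting are not given in the sources used here. The study's methods name a stranded mRNA library kit (Illumina TruSeq), whereas the labels name a different kit (NEBNext Ultra II DNA). Whether the reads kept their strand is therefore uncertain. The authors deposited a table of signal values, gene counts divided by DESeq2 size factors, for 62700 Ensembl genes. Multiplied back by the size factors, 100% of the values were whole reads (tolerance 0.01). All IDs were named with GENCODE release 29.

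The members and gene lists were chosen with earlier results of these data known. Groups came from the labels. log2(normalized count + 1) of the 14643 genes that averaged 10 or more was fitted with limma 3.58.1 (R 4.3.3, a mean-variance trend, 1 coefficient per group, all libraries), with Benjamini-Hochberg adjustment in each of 9 comparisons. On simulated data for the ATRA combination against ATRA, limma recovered 95.5% of 200 changed genes and called 2 others among 14643. The changed genes were fewer than those called in the data, were drawn from well expressed genes and had changes past 1.5-fold. Recovery of genes with low counts or near the limit was therefore not tested. Alternatives were edgeR 4.0.16 and DESeq2 1.42.0 on the recovered reads, other pseudocounts, filters, scalings and thresholds, a replicate block, and leaving out each library. Levels per kilobase used the union of exons. A count of 3 reads was taken as the floor. Library values are given for HSF1, HSF2, up to 4 members per class with the largest mean absolute change on adding the inhibitors and 3 with the largest change with retinoids alone; values of HSPA8 and the near-limit members were added after they were seen. Figures used matplotlib 3.10.9. A few genes of the marker and pathway lists are not reported here.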

Additional observations from a re-analysis of the deposited data

Results flagged for a closer look

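HSPA2 in untreated cells had 1 library far from the others. Untreated replicate 4, at 132 normalized counts, lay apart by 0.899 of the range of the group, above Dixon's 95% critical value for 4 libraries, and 1 of 37 members tested was marked in this way, where chance marks about 1 in 20. For HSP90AA1 every ATRA library lay below the untreated mean and every Am80 library above it. The difference between Am80 and ATRA was 0.42 on the log2 scale (limma, adjusted p = 0.0762). PTGES3 did the same, with a difference of 0.28 (adjusted p = 0.145). For BAG5 every library of the ATRA combination lay above the untreated mean and every library of the Am80 combination below it, with a difference of -0.13 (adjusted p = 0.35). None of these 3 differences passed the adjusted test.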

How the results depend on the processing

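Each of the 37 members was refitted under up to 27 alternatives in 9 comparisons. None of the 100 called changes turned its sign in any of them, whereas 48 of the 233 changes not called did in at least 1, among them HSF1 (-0.13 to 0.07) and BAG2 (-0.11 to 0.14) on adding the inhibitors to ATRA and DNAJB2 (-0.08 to 0.16) beside Am80. Of the refitted values 59 lost a call and 22 gained one, 8 of the latter between the combinations. Most counts that moved were small. With no limit on the fold, members lower with ATRA were 12, and with Am80 7 were lower and 6 higher. Of all 14643 tested genes 1778 were then lower with ATRA, and 1958 lower and 2253 higher with Am80. Against untreated cells 5 members were then lower in the ATRA combination and 4 in the Am80 combination, where 4397 and 3901 of all genes were. In the Am80 combination 2 members were lower than with Am80, where 2862 of all genes were. At adjusted p under 0.01 and 2-fold, 0 were lower with either retinoid, 10 were higher and 1 lower in the ATRA combination against untreated cells, 11 were higher in the Am80 combination, 13 were higher and 1 lower on adding the inhibitors to ATRA, and 15 higher and 0 lower on adding them to Am80. Members lower with Am80 were 2 with pseudocount 5, quantile normalization, scaling to total reads or edgeR, and 0 under the replicate block or without both libraries that stand apart (an alternative chosen after seeing the data). Of all genes 534 to 739 were lower with Am80 under these settings. With a minimum mean of 50, 1 was lower in the ATRA combination and 0 in the Am80 combination against untreated cells. Of the 11301 genes with that minimum 1559 and 1260 were lower. Beside ATRA, 1 was lower with a minimum mean of 50 or quantile normalization, where 1114 and 1394 of all genes were. Beside Am80, 0 were lower with pseudocount 5, no filter, a minimum of 50, quantile normalization, only the groups compared, edgeR or DESeq2. Of all genes 828 to 1433 were lower beside Am80 under these settings. Between the combinations 1 was called with only the groups compared, DESeq2, the replicate block, or without both libraries that stand apart. Leaving out 1 library at a time gave 0 to 2 lower with Am80, where 490 to 643 of all genes were. Against untreated cells 18 to 22 were higher in the ATRA combination and 23 to 25 in the Am80 combination, with 1890 to 2190 and 1778 to 1946 of all genes. Beside ATRA 1 to 2 were lower, with 1449 to 1759 of all genes. Beside Am80 22 to 23 were higher and 0 to 1 lower, with 902 to 1082 and 1116 to 1377 of all genes. Between the combinations 0 to 2 were called. No pairing of the libraries by replicate number was apparent, but groups of 3 are too small to exclude one. The median correlation was 0.0013 for same-numbered and -0.0047 for differently numbered libraries. Correlations of same-numbered libraries ran from -0.11 to 0.14, with 2 of 30 over 0.1, and 7 of 15 libraries correlated best with their own number. Scaling to total reads shifted the median of all genes by -0.16 on adding the inhibitors to ATRA and -0.13 beside Am80, and the genes called higher and lower were 676 and 2551 beside ATRA (1193 and 1668 in the report's fit) and 673 and 1875 beside Am80 (997 and 1303). Relative to that shift the members were still higher: 22 and 21 were called higher, and 21 and 22 under quantile normalization. Quantile normalization called 1289 and 1087 of all genes higher. Between the combinations the fit of the report and edgeR called 0 of all genes, but DESeq2 called 13 higher, and limma called 70 higher and 57 lower with only the groups compared, 43 and 41 under the replicate block, 47 and 39 without untreated replicate 4, 21 and 17 without Am80 replicate 2, and 79 and 78 without both. In the interaction DESeq2 called 6, and limma 19 higher and 7 lower without Am80 replicate 3. Depth limits HSPA12B, DNAJB5 and the 6 members under the minimum.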
